A study of Mus musculus with 11 samples.

Results

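The AP-1 transcription factors were followed over mouse otospheres, cochlear sensory epithelium (CSE) and embryonic stem cells (ESCs). The genes were Fos, Fosb, Fosl1, Fosl2, Jun, Junb, Jund, Maff and Batf3, 9 of the 20284 genes with a named probe, and they were represented by 10 of the 55681 probes. A probe belonged to a gene when its transcript accession named that gene in RefSeq, and the brightest probe of a gene was its main probe. Only Fosl2 had more than 1 probe. The RNA was labelled with Cy3 and put on 11 one-colour arrays, 6 of otospheres (OS1 to OS6), 3 of CSE (CSE1 to CSE3) and 2 of ESCs (ES1 and ES2). OS1 with OS2 and OS4 with OS5 differed by less than the noise between spots of the same probe, so each pair was averaged and counted as 1 sample, which left 4 otosphere, 3 CSE and 2 ESC samples.

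CSE was the lining of the cochlear duct with its hair cells and supporting cells, freshly dissected from ICR mice aged 1 day after the spiral ligament and stria vascularis had been taken off. Each preparation pooled 20 cochleae of 10 mice. Otospheres were floating spheres grown from dissociated CSE in serum-free medium with bFGF at 10 ng/ml, IGF1 at 50 ng/ml and heparan sulfate, cultured for 4 to 5 days, dissociated once and cultured for 4 to 5 days more, with solid spheres kept by filtering. The ESCs were the lines G4-2 (ES1) and D3 (ES2) at passage 13, grown without feeder cells in serum with LIF. Each line gave 1 array, so the ESC spread held the difference between the lines. Which arrays came from separate preparations is not stated for otospheres and CSE, and the p-values below measure only the spread between these samples. The 3 groups shared 1 estimate of that spread, so a sample of 1 group also moved the p-values between the other groups.

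AP-1 is a family of dimers of basic leucine zipper proteins. Jun proteins pair with each other or with Fos proteins and bind the DNA element TGANTCA or the related cAMP response element. Maff and Batf3 are relatives in the same superfamily whose dimers modify which genes are switched on. Fos, Fosb, Jun and Junb are immediate early genes: growth factors or stress act through MAP kinases on proteins already present at their promoters, and their short-lived mRNAs rise within minutes and fall again. Fosl1 and Fosl2 follow more slowly, and in cultured cells they accompany proliferation, migration and wound responses.

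Promoter sequences are shown first for Fos, Jun and Maff. These genes were among those that stood far higher in 1 CSE sample than in the others, and letter matches to response elements lie just upstream of their starts. The stretches come from RefSeq (GRCm38.p6), which gave 10 promoter windows for 8 of the 9 genes, each from 250 bases before the start to 50 after it, and had no entry for Fosl1. Capitals mark TGACGT, the core of the cAMP response element TGACGTCA, or TGACATCA, the octamer that dimers of Jun and Atf2 are known to bind, read on both strands. In the first Maff stretch the matches on the 2 strands overlap and form the full palindrome.
Jun, minus strand, chr4:95052230-95052297: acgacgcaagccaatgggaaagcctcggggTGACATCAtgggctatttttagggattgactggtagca
Fos, plus strand, chr12:85473794-85473859: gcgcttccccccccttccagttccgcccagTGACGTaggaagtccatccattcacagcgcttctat
Maff, plus strand, chr15:79347461-79347519: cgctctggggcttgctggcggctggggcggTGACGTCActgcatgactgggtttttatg
Maff, plus strand, chr15:79348327-79348394: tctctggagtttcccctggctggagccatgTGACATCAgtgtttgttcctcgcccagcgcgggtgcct

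With the start counted as 0, TGACGT began at -66 in Fos and at -29 in the first Maff window, and TGACATCA began at -45 both in Jun and in the second Maff window. TGACGT was held by 2 of the 10 member windows and by 7.51% of the 32851 windows of all genes. TGACATCA was likewise held by 2 member windows and by 3.62% of all. Fosb and Junb, which also stood far higher in that CSE sample, held neither. No member window held TGANTCA, which 7.81% of all windows held, or the CArG box of serum response factor, which 1.63% held, and elements outside these windows were not searched. The matches are a description of the letters and not of binding.

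All 9 main probes passed the filter on dim probes and were flagged as well above background on every array. Some levels were nevertheless dim, such as Fosl1 and Junb in CSE and Batf3 in OS6, and there the size of a difference depends on the processing. Values are log2 normalized intensities, which can be compared between samples for 1 probe but not between probes. Between 55.1% and 71.6% of the spots of an array were well above background. Hair cell markers were higher in CSE than in ESCs for 9 of 9 genes and supporting cell markers for 7 of 8, and 6 of 7 ESC markers were lower in otospheres and in CSE than in ESCs, as the labels would have it. Among all named genes, 20.9% were higher and 20% lower in CSE than in ESCs, and 20.4% were lower in otospheres than in ESCs. The 2 slides, scanned at different times, held ES1, OS1 to OS3, CSE1 and CSE2 on the first and ES2, OS4 to OS6 and CSE3 on the second.

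**Figure D1:**
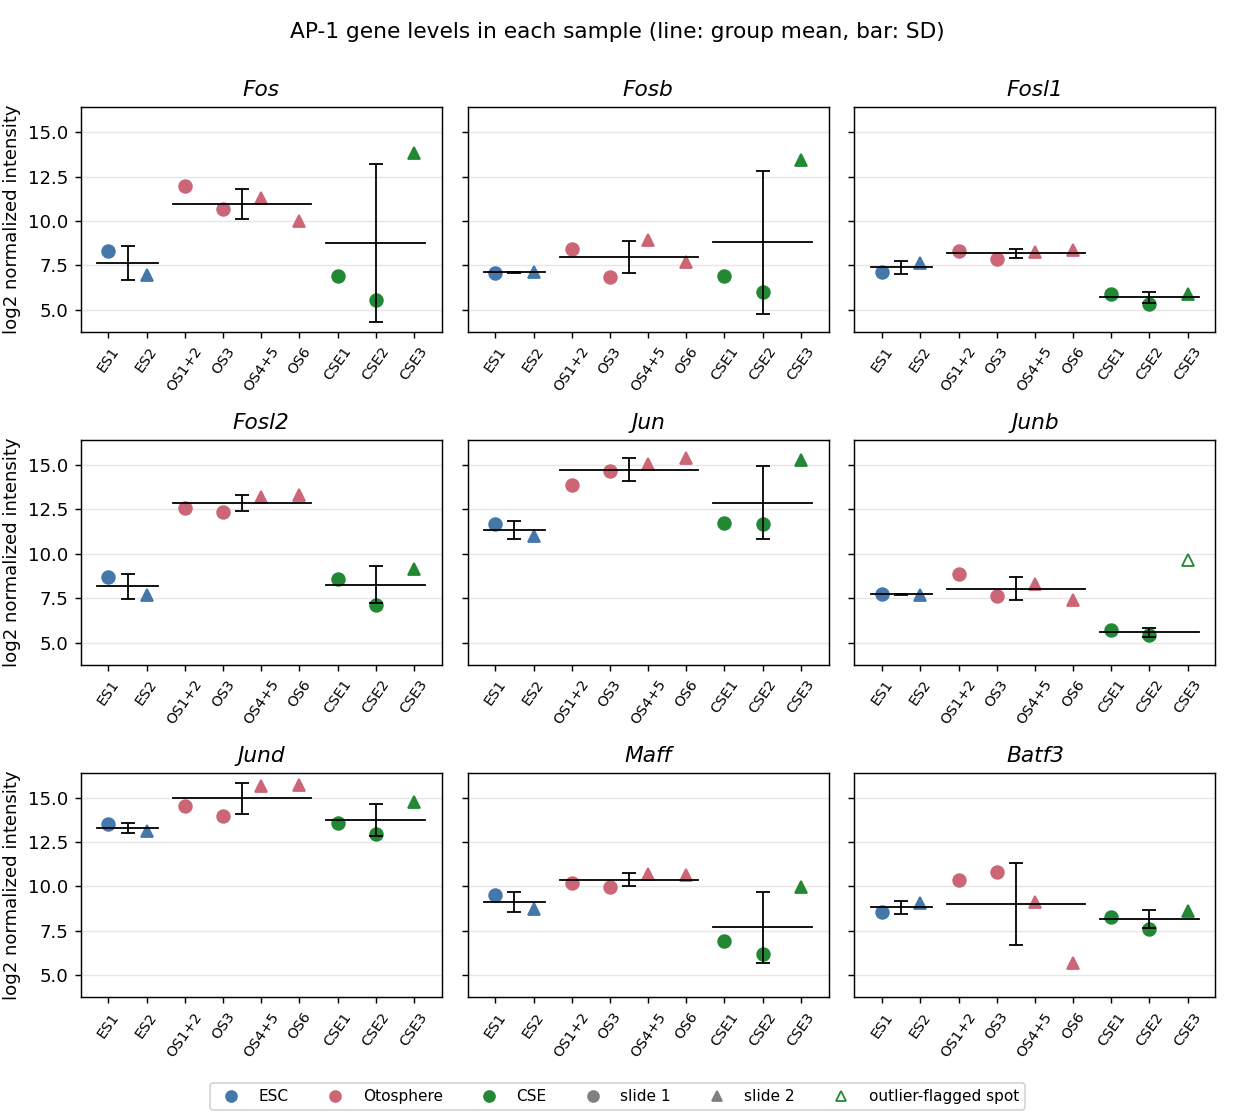
Levels of the 9 AP-1 genes in each sample, as log2 normalized intensity of the main probe on the vertical axis. Points are samples (circles slide 1, triangles slide 2), lines are group means and bars are SDs. Fosl2 formed a high otosphere group with no overlap, and CSE3 stood far above CSE1 and CSE2 for Fos, Fosb, Jun, Maff and, as an open triangle for a spot with an outlier flag, Junb.

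Otospheres had higher levels of Fosl2, Fosl1 and Junb than CSE, and of Fosl2, Jun and Fosl1 than ESCs. Compared with ESCs, CSE had lower levels of Fosl1 and Junb. In limma's test at an adjusted p under 0.05, 3 of the 9 genes were higher in otospheres than in CSE and 0 lower, beside 7.17% higher and 10.3% lower among the 18565 named genes tested. For otospheres against ESCs, 3 were higher and 0 lower, beside 18.4% and 20.4%. For CSE against ESCs, 0 were higher and 2 lower, beside 20.9% and 20%. At an unadjusted p under 0.05, limma's test also placed 0 lower in otospheres than in CSE, 0 lower than in ESCs and 0 higher in CSE than in ESCs. The F-test over the 3 groups called 4 genes, Fosl1, Fosl2, Jun and Junb, beside 48.7% of the named genes. The otosphere samples all lay above the CSE samples for 3 genes (Fosl1, Fosl2 and Junb), beside 14.1% of all genes, and all above the ESC samples for 6 genes (Fos, Fosl1, Fosl2, Jun, Jund and Maff), beside 25.9%. The median of the 9 differences between otospheres and CSE was 2.21 on the log2 scale, and the median over all named genes was -0.01. Junb is counted here without its CSE3 spot, which carried an outlier flag and read above every otosphere sample, and with that spot kept 2 genes were called higher in otospheres than in CSE and 1 lower in CSE than in ESCs.

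The Fos-related genes that act late differed most steadily between the groups. Fosl2, which encodes Fra-2 (chr5:32136472-32157840, GRCm38.p6, as for the gene positions that follow), was at 12.59 in OS1+2, 12.34 in OS3, 13.20 in OS4+5 and 13.31 in OS6. It was at 8.56 in CSE1, 7.11 in CSE2 and 9.13 in CSE3, and at 8.67 in ES1 and 7.68 in ES2. Every otosphere sample was thus above every sample of the other groups, which overlapped with each other. The otosphere mean of 12.86 ± 0.47 (SD, n = 4) exceeded the CSE mean of 8.26 ± 1.04 (SD, n = 3) by 4.59 ± 0.49 (SE), a 24.2-fold difference with an adjusted p of 6.4e-04, and the difference ranked 66 among 18565 genes. Against ESCs the rise was 4.69 ± 0.55 (SE), or 25.7-fold, with an adjusted p of 3.4e-04. Both calls were kept in all 20 alternative settings. CSE and ESCs differed by 0.09 ± 0.58 (SE), adjusted p 0.935. On slide 1 alone the difference of otospheres from CSE was 4.63, and on slide 2 alone it was 4.12.

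The second Fosl2 probe was dim, at 6.29 to 7.39 in otospheres, 5.42 to 5.53 in CSE and 5.48 to 6.25 in ESCs, and it was not well above background on 1 ESC and 1 CSE array. It also placed otospheres above CSE, by 1.33 ± 0.30 (SE) with an adjusted p of 0.0220. The difference from ESCs by this probe was 0.93 ± 0.34 (SE), adjusted p 0.0740, and did not pass the threshold.

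Fosl1, which encodes Fra-1 (chr19:5447698-5455938), was at 8.29, 7.84, 8.24 and 8.36 in OS1+2, OS3, OS4+5 and OS6. Its CSE levels were 5.88 in CSE1, 5.34 in CSE2 and 5.88 in CSE3, and its ESC levels were 7.15 in ES1 and 7.65 in ES2. The 3 groups did not overlap, with otospheres on top, ESCs in the middle and CSE lowest. Otospheres exceeded CSE by 2.48 ± 0.22 (SE), 5.59-fold, adjusted p 2.7e-04, and CSE was below ESCs by a difference of -1.70 ± 0.26 (SE), adjusted p 0.00136. Both calls were kept in all 20 alternatives, and within each slide the difference of otospheres from CSE was alike (2.45 and 2.42). The CSE signals were dim before normalization, at 68, 47 and 60 over a background of 33, 31 and 33 on CSE1, CSE2 and CSE3. The size of the difference from CSE therefore ran from 1.91 with an offset of 50 to 3.36 with scaling to the 75th percentile. The step from ESCs to otospheres was small, 0.78 ± 0.25 (SE), adjusted p 0.0445, and passed the threshold in 9 of the 20 alternatives.

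The Jun genes encode the partners that every Fos protein needs. Jun (chr4:95049036-95052222) was at 13.87, 14.69, 15.04 and 15.37 in OS1+2, OS3, OS4+5 and OS6, and at 11.70 in ES1 and 11.002 in ES2. In CSE it was at 11.73 in CSE1, 11.65 in CSE2 and 15.27 in CSE3. All otosphere samples were above both ESC samples, but CSE3 lay inside the otosphere range while the other CSE samples were near the ESC level. Otospheres were 10.5-fold above ESCs, a difference of 3.39 ± 0.94 (SE), adjusted p 0.0249, which was called in 13 of 20 alternatives. Without CSE3 this difference was the same, and through the shared spread its adjusted p was 9.3e-04. Against CSE the difference was 1.86 ± 0.82 (SE), adjusted p 0.227. Without CSE3 it was 3.05 with an adjusted p of 0.00565, and it was 2.59 within slide 1 and -0.06 within slide 2, where CSE3 lay.

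Junb (chr8:84976909-84978748), whose protein often restrains Jun, was at 8.83, 7.61, 8.29 and 7.39 in OS1+2, OS3, OS4+5 and OS6, at 7.73 and 7.69 in ES1 and ES2, and at 5.73 in CSE1 and 5.41 in CSE2. The Junb spot of CSE3 carried a flag for uneven pixels and was left out of the fit, so the CSE group had 2 samples here. With those samples, CSE was lowest with no overlap, and otospheres overlapped with ESCs. The CSE signals were dim before normalization, at 68.5 on CSE1 and 52.5 on CSE2 over a background of 40 and 34. Otospheres exceeded CSE by 2.46 ± 0.39 (SE), 5.51-fold, adjusted p 0.00626, and CSE differed from ESCs by -2.14 ± 0.45 (SE), adjusted p 0.00893. The flagged spot read 9.63, above every otosphere sample. With it kept, the first difference became 1.11 with an adjusted p of 0.600 and the second became -0.78 with an adjusted p of 0.660, so both Junb calls rested on leaving that spot out. In the authors' log2 table the differences were 1.44 (adjusted p 0.504) and -1.10 (adjusted p 0.566). Leaving out CSE1 or CSE2 left 1 CSE sample for Junb, and leaving out CSE3 took no Junb value away, so these settings say nothing about the stability of its calls.

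Jund (chr8:70697739-70700616) is the Jun gene that most cells keep on without stimulus. It was at 14.52, 13.94, 15.65 and 15.72 in OS1+2, OS3, OS4+5 and OS6, at 13.59, 12.96 and 14.74 in CSE1, CSE2 and CSE3, and at 13.50 and 13.10 in ES1 and ES2. Otospheres lay above both ESC samples and overlapped with CSE through CSE3. The differences were 1.20 ± 0.53 (SE), adjusted p 0.228, against CSE and 1.66 ± 0.60 (SE), adjusted p 0.0733, against ESCs. The second was called when slide was a blocking term (1.66, adjusted p 0.0219), with every array a separate sample (1.70, adjusted p 0.0346) and without OS3 (2.00, adjusted p 0.0310). Slide 2 read higher for otospheres (15.69 against 14.23 on slide 1) and for CSE (14.74 against 13.27) but not for ESCs (13.10 against 13.50).

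Fos (chr12:85473890-85477274), the founding member, was spotted 10 times per array, and the SD between its usable spots was 0.05 to 0.16 on an array. It was at 11.95, 10.66, 11.31 and 10.01 in OS1+2, OS3, OS4+5 and OS6, and at 8.31 and 6.95 in ES1 and ES2. Its CSE levels were 6.91 in CSE1, 5.57 in CSE2 and 13.84 in CSE3. The last was above every otosphere sample, and the other CSE samples were below both ESC samples. Before normalization the median signal was 142 on CSE1, 59.3 on CSE2 and 10485 on CSE3, against a local background of 31.4 to 33.2. The difference between otospheres and CSE was 2.21 ± 1.68 (SE), adjusted p 0.557, with all samples and 4.74, adjusted p 0.00576, without CSE3. Within slide 1 otospheres were 5.06 above CSE, and within slide 2, where CSE3 was the CSE sample, the difference was -3.19. Against ESCs the difference was 3.35 ± 1.91 (SE), adjusted p 0.242. Without CSE3 this difference was the same, and through the shared spread its adjusted p was 0.00686.

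Fosb (chr7:19302696-19310118), which encodes a close relative of Fos, was at 8.45, 6.86, 8.92 and 7.69 in OS1+2, OS3, OS4+5 and OS6, and at 7.10 and 7.12 in ES1 and ES2. In CSE it was at 6.93, 6.03 and 13.44, so that CSE3 was above all other samples, while CSE1 and CSE2 were below both ESC samples. The otosphere range overlapped with both other groups. The difference of otospheres from CSE was -0.82 ± 1.53 (SE), adjusted p 0.868. It turned to 1.50, adjusted p 0.184, without CSE3, and no call was made in either case. Within slide 1 it was 1.17, and within slide 2 it was -5.13.

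Maff (chr15:79346621-79359078) encodes a small Maf protein that lacks an activation domain. It was at 10.19, 9.95, 10.69 and 10.65 in OS1+2, OS3, OS4+5 and OS6, at 6.92, 6.21 and 9.98 in CSE1, CSE2 and CSE3, and at 9.54 and 8.71 in ES1 and ES2. CSE3 reached the lower edge of the otosphere range, and CSE1 and CSE2 were below both ESC samples. Otospheres differed from CSE by 2.67 ± 0.77 (SE), adjusted p 0.0616, and without CSE3 by 3.81, adjusted p 0.00122. The difference was 3.50 within slide 1 and 0.69 within slide 2. CSE differed from ESCs by -1.42 ± 0.92 (SE), adjusted p 0.305, and without CSE3 by -2.56, adjusted p 0.00325.

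Batf3 (chr1:191098414-191108943), known for its need in dendritic cells that cross-present antigen, varied among the otospheres rather than between the groups. It was at 10.38, 10.83, 9.13 and 5.71 in OS1+2, OS3, OS4+5 and OS6, at 8.25, 7.61 and 8.63 in CSE1, CSE2 and CSE3, and at 8.58 and 9.09 in ES1 and ES2. OS6 was the lowest of all 9 samples and OS3 the highest, and all groups overlapped. OS6 was at least 2 below every other otosphere sample for 0.538% of the 47997 probes, of which Batf3 was the only member. Otospheres and CSE differed by 0.85 ± 1.06 (SE), adjusted p 0.771. Without OS6 the difference was 1.95, adjusted p 0.0348, and it was 2.67 within slide 1 and -1.21 within slide 2. The mean of 8 fibroblast markers, centred on each gene, took the same order over the otospheres, at 1.12, 1.91, -0.10 and -2.01. So did the mean of 6 endothelial markers, at -0.49, -0.43, -0.68 and -1.41. The reverse order was taken by the mean of hair cell markers, at -0.81, -1.42, 0.20 and 0.65. Neuronal markers also took the reverse order, at -2.005, -2.58, -1.62 and -1.54. The other cell type lists took neither order. Between the groups the fibroblast mean did not follow Batf3, since it was at -3.66 and -3.22 in ES1 and ES2 and at 1.76 to 2.25 in CSE. The part of these cell types in the Batf3 levels was not tested. Among the dendritic cell markers, Xcr1 and Clec9a did not pass the filter on dim probes, and Flt3 was at 5.59 in otospheres and 5.77 in CSE (means). Of the whole macrophage and dendritic cell list, 9 of 14 genes were called lower in otospheres than in CSE, beside 10.3% of all named genes.

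**Figure D2:**
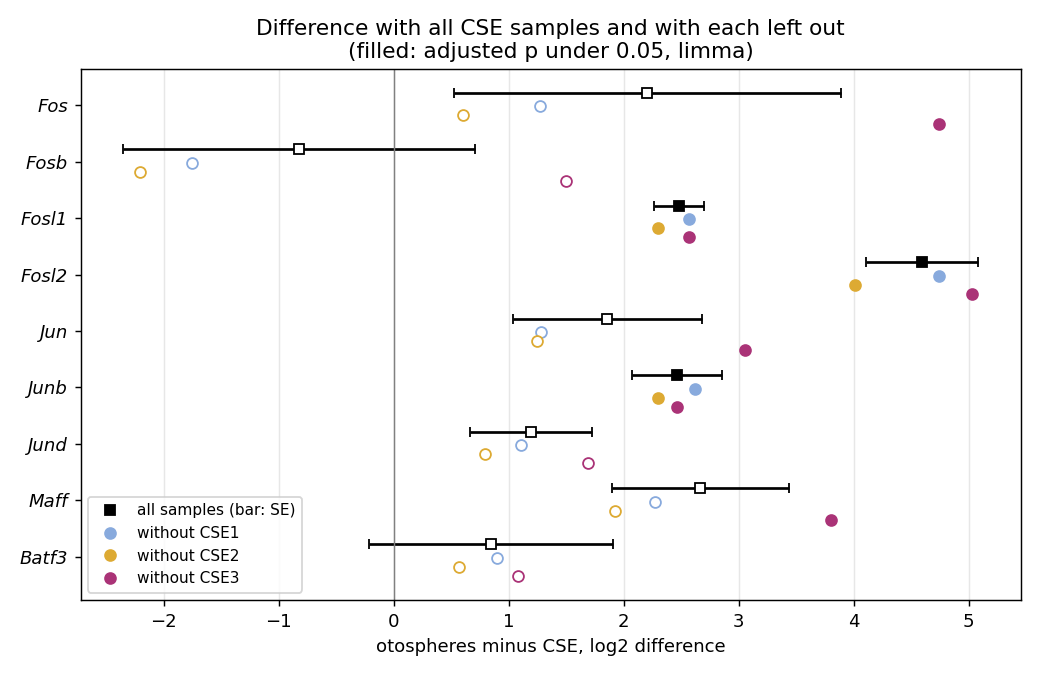
Difference between otospheres and CSE for each AP-1 gene on the log2 scale, with all samples (black squares, bars SE) and with each CSE sample left out in turn (circles). Filled symbols passed an adjusted p of 0.05 in limma's test. Fosl1 and Fosl2 stayed filled throughout, and Fos, Jun and Maff were filled without CSE3 alone. Junb had no CSE3 value in the fit, so its circles rest on 1 CSE sample or repeat the square.

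The count of AP-1 genes higher in otospheres than in CSE therefore depended on CSE3. Without that sample it was 6 of 9 (Fos, Fosl1, Fosl2, Jun, Junb and Maff), beside 4.37% of the named genes, and the median difference was 2.57. Fos, Jun and Maff were among the genes that stood furthest above the other CSE samples in CSE3. Leaving it out thus had to raise their differences and narrow their spread. The calls gained, and their share beside 4.37%, are a description and not further support. In the same setting, 4 genes (Fos, Fosl2, Jun and Maff) were higher in otospheres than in ESCs, beside 17.3% of the named genes. Their differences from ESCs were the same with CSE3, and only the shared spread changed.

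CSE3 was next compared with the other CSE samples over all genes, as a description chosen after its values had been seen. It was at least 2 on the log2 scale above both CSE1 and CSE2 for 25 of the 18565 named genes, 0.135%, and 5 of the 9 AP-1 genes were among them (Fos, Fosb, Jun, Junb with its flagged spot, and Maff). Fos had the largest gap of all named genes, 6.90, and Fosb the second largest, 6.51. Junb (3.91), Jun (3.54) and Maff (3.06) ranked 6, 8 and 16. Fosl1, Fosl2, Jund and Batf3 were also highest in CSE3 but by less than 2. By probes, CSE3 was that far above both others for 34 of 47997, CSE1 for 20 and CSE2 for 830, and no AP-1 probe was among those of CSE1 or CSE2.

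Other genes of the rapid response moved with these. Of 19 other immediate early genes that passed the filter, 18 were highest in CSE3 among the CSE samples and 10 were at least 2 above both others, such as Egr1, at 10.66, 9.71 and 14.67 in CSE1, CSE2 and CSE3. Atf3, a stress-induced AP-1 relative, was at 6.40, 5.74 and 11.31, and Dusp1, a phosphatase that ends MAP kinase signals, was at 7.55, 7.11 and 11.21. Each was the only gene of its list that far above both others. Of 16 other genes of the AP-1 and Maf families, 5 were highest and 4 lowest in CSE3. Of 12 feedback inhibitors of the kinases, 8 were highest and 1 was lowest there. Of the 25 textbook AP-1 target genes, 16 were highest and 5 lowest in CSE3, and of the 20 kinases and factors upstream 6 were highest and 8 lowest. None of either list was at least 2 above both other CSE samples. Because only 0.135% of all named genes were, lists of this size cannot show a contrast by that cut.

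**Figure D3:**
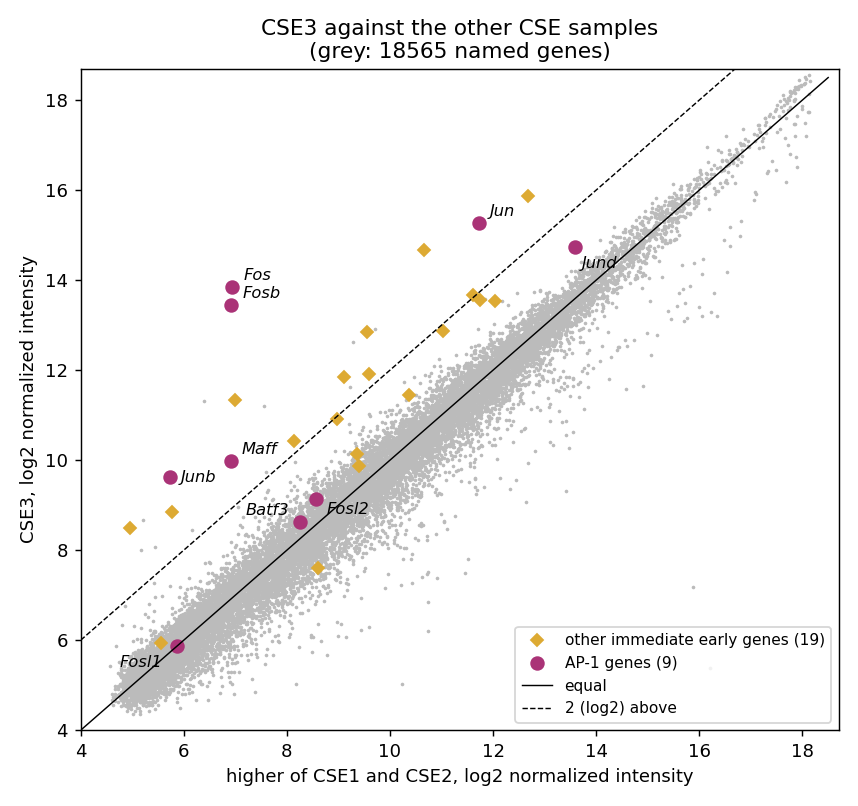
CSE3 against the higher of CSE1 and CSE2 for 18565 named genes, both as log2 normalized intensity. The solid line marks equal levels and the dashed line a level 2 higher in CSE3. Fos, Fosb, Jun, Junb and Maff lay above the dashed line with 10 of 19 other immediate early genes, and Fosl1, Fosl2, Jund and Batf3 lay below it.

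No marker of the 9 cell type lists was at least 2 above both other samples in CSE3, beside 0.135% of all named genes. Lists of this size cannot show a contrast with the AP-1 genes by that cut. As means centred on each gene, hair cell markers were at 1.63, 1.49 and 1.80 in CSE1, CSE2 and CSE3, supporting cell markers at 2.36, 2.31 and 2.36, and macrophage and dendritic cell markers at 1.33, 1.36 and 1.48. Neuronal markers were lower in CSE3 (1.84) than in CSE1 (2.68) and CSE2 (2.83), and so were fibroblast markers (1.76 against 2.25 and 1.95). Of the neuronal markers 5 of 7 were lowest in CSE3, and of the fibroblast markers 6 of 8. Of the hair cell markers 6 of 9 were highest there, and of the macrophage and dendritic cell markers 9 of 14. The part of cell make-up in the CSE3 levels was not tested. The share of spots well above background was 60.0% on CSE3, 68.3% on CSE1 and 71.6% on CSE2. CSE3 was the only CSE array on slide 2, so slide and sample cannot be told apart within CSE. The otospheres of slide 2 were lower than those of slide 1 for Fos (10.66 against 11.30) and higher for Jun (15.21 against 14.28), Fosb (8.30 against 7.65) and Maff (10.67 against 10.07). The part of the slide in the CSE3 levels was not tested.

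Markers of several cell types also differed between CSE and otospheres, beside the AP-1 genes. Among all named genes, 10.3% were called lower in otospheres than in CSE. Supporting cell markers were at 2.31 to 2.36 in CSE and -0.67 to 0.37 in otospheres (6 of 8 genes lower in otospheres), and hair cell markers at 1.49 to 1.80 and -1.42 to 0.65 (5 of 9 lower). Erythroid markers were at 3.21 to 3.88 in CSE and -2.21 to -1.85 in otospheres (5 of 7 genes lower in otospheres), neuronal markers at 1.84 to 2.83 and -2.58 to -1.54 (6 of 7 lower), and macrophage and dendritic cell markers at 1.33 to 1.48 and -0.79 to -0.45 (9 of 14 lower). Their part in the AP-1 differences was not tested, and in RNA of whole tissue fewer cells that express a gene and less of its RNA per cell cannot be told apart.

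The surrounding pathway was then described by lists of genes in their roles. Among all named genes, 7.17% were called higher in otospheres than in CSE and 10.3% lower. Of 20 kinases and factors upstream, which include the ERK, JNK and p38 kinases, serum response factor and Creb1, 0 were higher in otospheres than in CSE and 1 was lower in limma's test (2 and 2 at an unadjusted p under 0.05). That was Mapk7, the ERK5 kinase, with a difference of -0.68 (adjusted p 0.0310), and the median of the list was -0.02. Without CSE3, 0 were higher and 0 lower. Of 12 feedback inhibitors, 4 were higher and 0 lower (6 and 0 at an unadjusted p under 0.05), with a median of 0.90. These were phosphatases of the dual-specificity family, which remove phosphates from MAP kinases, namely Dusp10 (difference 2.72), Dusp8 (2.56), Dusp4 (2.41) and Dusp5 (2.18).

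Of 16 other genes of the AP-1 and Maf families, 4 were higher and 1 was lower, beside 7.17% and 10.3% of all named genes. The list median was 0.79. Nfe2l2, the antioxidant response factor Nrf2 that pairs with small Maf proteins such as Maff, was higher by 2.75, Nfe2l3 by 2.47, Nfe2l1 by 1.50 and Mafg, another small Maf gene, by 1.07. Nfe2, the erythroid partner of small Maf proteins, had a difference of -2.64.

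Among 25 textbook AP-1 target genes, 13 were higher in otospheres than in CSE and 0 lower, beside 7.17% and 10.3% of all named genes, and the median difference was 2.06. At an unadjusted p under 0.05, limma's test placed 16 higher and 0 lower. Without CSE3, 11 were called higher, beside 4.37% of all named genes. Among the genes called, the largest differences were those of Plaur, the urokinase receptor (5.30), Ccl2, a monocyte chemokine (4.57), Plau, urokinase (4.27), and Mt1, a metallothionein (4.09). The list was not chosen apart from these data, and its genes answer to other factors too. As means centred on each gene, it was at 1.72, 1.79, 1.03 and 0.19 in OS1+2, OS3, OS4+5 and OS6 and at -1.34, -1.43 and -1.11 in CSE1, CSE2 and CSE3. Otospheres were thus above CSE without overlap. CSE3 was the highest of the CSE samples for this mean, and 16 of the 25 genes were highest there among the CSE samples.

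Of the 19 other immediate early genes, 3 were higher in otospheres than in CSE with all samples (Ier3 by 4.08, Gadd45b by 3.68 and Ccn2 by 3.58), beside 7.17% of all named genes. Without CSE3, 8 were higher, beside 4.37%. The list median moved from 0.69 to 1.60 when CSE3 was left out. With 18 of these genes highest in CSE3 among the CSE samples, such a rise was largely built in.

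**Figure D4:**
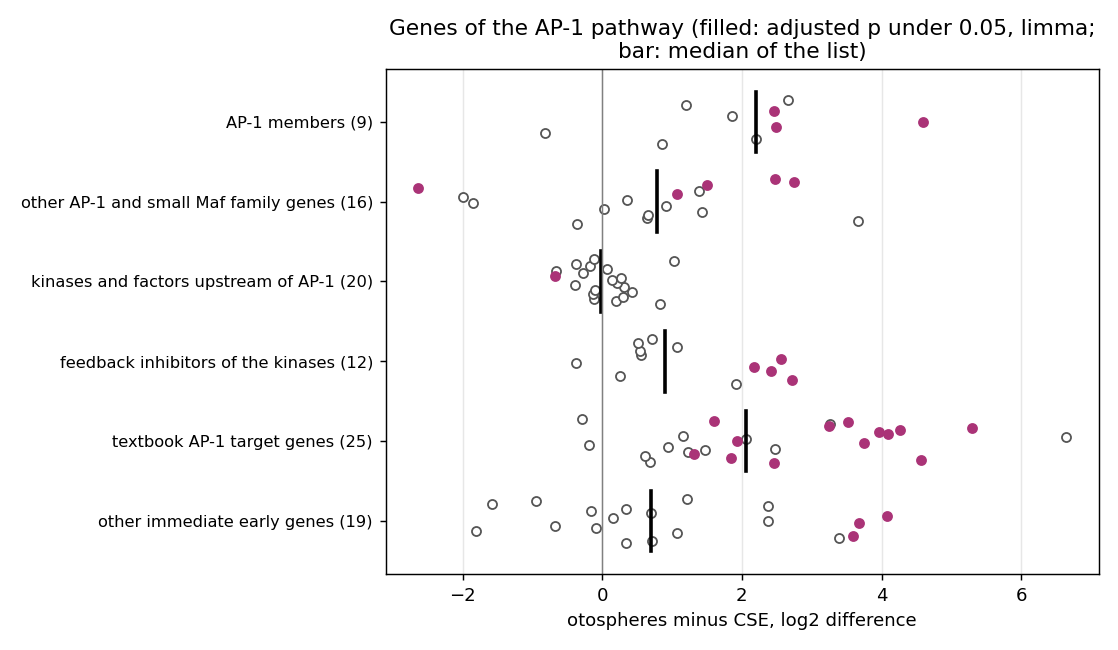
Difference between otospheres and CSE on the log2 scale for each gene of 6 lists, with the number of genes in brackets. Filled points passed an adjusted p of 0.05 in limma's test and bars are list medians. The upstream kinases lie around 0, and 13 of the 25 textbook targets are filled to the right.

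Patterns over the 9 samples were compared by Pearson's r among 14358 named genes whose range was at least 1 on the log2 scale, as a description without a test. The 3 groups set much of any likeness, and so can a lone sample, such as CSE3 for Fos and Maff or OS6 for Batf3. The genes closest to Fos were Egr1 (r = 0.966) and Zfp36 (0.954), both immediate early genes, and Pik3ap1 (0.902). Those closest to Maff were Atf3 (0.982), Borcs8 (0.974) and Ccn1 (0.971). For Jun they were Trex1 (0.953), Pcbd2 (0.946) and Glmp (0.945). Fosl1 was closest to Gas2l1 (0.986), Slc66a1 (0.985) and Nus1 (0.984), and Fosl2 to Ldhd (0.991), Serpinb6b (0.985) and Serpinb1c (0.985). For Batf3 they were Eps8 (0.989), Rftn1 (0.966) and Ifitm1 (0.955).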

How the data were processed

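Per the file headers, the deposited scanner files were made with Feature Extraction 10.7.3.1 and hold median intensities for spots and for local background, a processed intensity and flags, not normalized between arrays. The authors also deposited log2 values that they background-corrected and quantile-normalized with limma, leaving out dim probes. Among those values, 360 of the 372 probes spotted 10 times have values under 3 throughout. Fos is one of them, at 0.51 to 1.40, and for this reason the scanner files were used. For the medians, background was corrected by normexp in limma 3.58.1 under R 4.3.3 (offset 16, which the paper does not state), then log2 values of the 11 arrays were quantile-normalized. Control spots and outlier-flagged spots were left out and spots of a probe were averaged. Kept were probes that on at least 2 arrays exceeded by 10% the 95th percentile over 308 negative controls (47997 of 55681; the paper's methods ask for 3 arrays). The pairs averaged had a spread of 0.940 and 0.435 times that between spots, and the 17 other pairs within groups at least 1.74 times.

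RefSeq accessions named 26762 probes, 28919 had no name, and Atf7 and Cd68 had no probe. Group means for the 3 groups were fitted by limma to 9 samples and all kept probes (Benjamini-Hochberg, threshold 0.05, two-sided), and was tested on simulated data. All 9 genes are named. In other lists the 4 largest called rises and falls from CSE to otospheres are named, and for 6 genes the 3 closest patterns. Egr1, Atf3 and Dusp1 in CSE3 were named after their values were seen. The members and lists were chosen with earlier results of these data known. ESC datasets of other studies were not used here. Precision is limited by how few arrays there are. Alternatives were offsets of 0 and 50, scaling to the 75th percentile, the authors' table, filters, the slide or the replicate number as a block, each array as a sample, each sample left out, an ordinary linear model, the other Fosl2 probe, single slides and, added after seeing the data, flagged spots kept.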

Additional observations from a re-analysis of the deposited data

How the results depend on the processing

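The counts of AP-1 genes lower in otospheres than in CSE or ESCs, and higher in CSE than in ESCs, were 0 in all 20 alternatives. Where an ESC sample was left out, or for Junb CSE1 or CSE2, the lone sample was assumed to vary like the other groups. Leaving out each sample in turn, the count higher in otospheres than in CSE ran from 3 to 6, that higher in otospheres than in ESCs from 1 to 4, and that lower in CSE than in ESCs from 2 to 3. The count higher in otospheres than in CSE was 6 without CSE3. The count higher in otospheres than in ESCs was 1, in place of 3, with scaling to the 75th percentile, with the ordinary linear model of the methods, and without ES1, OS4+5 or OS6. The count lower in CSE than in ESCs was 1, in place of 2, with the authors' table and with spots that carry an outlier flag kept, an alternative chosen after seeing the data. Both also gave 2 in place of 3 higher in otospheres than in CSE. The count with a difference among the 3 groups was 4, from 3 to 6 leaving out each sample in turn, and 6 with every array a separate sample. The slide as a block gave 4 in place of 3 higher in otospheres than in ESCs, Jund being gained. The cause was not tested. The authors' table gave a Fos difference between otospheres and CSE of 0.25, and 2.47 when its Fos values were multiplied by 10.

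No difference that changed sign had passed the threshold in the main fit, but some were called in an alternative. Batf3 in otospheres against ESCs was called with the replicate number as a block. Against CSE, Fos and Jun were called without CSE3 and Batf3 without OS6. Within slide 2 these differences were -3.19, -0.06 and -1.21. Maff in CSE against ESCs was called without CSE3 and was 1.27 within slide 2. Batf3 in otospheres against ESCs was -0.061 with scaling to the 75th percentile and, leaving out each sample in turn, ran from -0.43 (without OS3) to 1.28 (without OS6), with negative values also without ES1 (-0.082) and OS1+2 (-0.28). Jund in CSE against ESCs was -0.40 with that scaling and ran from -0.028 (without CSE3) to 0.87 (without CSE2). Fosl2 in CSE against ESCs ran from -0.40 (without ES2) to 0.67 (without CSE2), with -0.055 without CSE1 and -0.34 without CSE3, and was -0.40 by its other probe. Between leaving out CSE3 and leaving out CSE2, Fosb in otospheres against CSE went from 1.50 to -2.20, and CSE against ESCs from -1.39 to 2.75 for Fos and from -0.63 to 3.07 for Fosb.

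Same-numbered otosphere and CSE arrays did not deviate together (r = 0.36, -0.34 and -0.39 for numbers 1 to 3), so the numbers were not taken to pair samples. With the replicate number as a block and every array a separate sample, 4 AP-1 genes were higher in otospheres than in CSE and 3 higher than in ESCs, while Fosb in otospheres against ESCs was -0.083 and Fosl2 in CSE against ESCs -0.083. That fit called Batf3 higher in otospheres than in CSE (2.37, adjusted p 0.00530) and ESCs (1.50, adjusted p 0.0211), and Junb higher than in ESCs (1.13, adjusted p 0.0376).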
